A study of Mus musculus with 4 samples.

Results

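The genes described here write, read and erase DNA methylation: the methyltransferases Dnmt1, Dnmt3a and Dnmt3b, the readers Uhrf1, Uhrf2 and Mbd2, and the methylcytosine dioxygenases Tet1, Tet2 and Tet3. They were the rows of the deposited count table that carried these 9 symbols, out of 56748 genes in all. All 9 passed the filter on low counts, which left 15167 genes to test. RNA was measured by poly-A selected bulk sequencing of lung metastases grown from 4T1-FLuc cells, a luciferase-tagged mouse line of triple-negative breast cancer, after tail-vein injection into female BALB/cJ mice 7 weeks old. Saline stood for the untreated state in 2 libraries, whose treatment label reads PBS control. The other 2 libraries came from mice given cmLumiOpto/PARPi for 3 weeks. cmLumiOpto is an adeno-associated virus carried in exosomes that bear an antibody against the tumour antigen CD276, and it encodes a light-gated channel for the inner mitochondrial membrane together with a luciferase that lights it. PARPi was olaparib, an inhibitor of poly(ADP-ribose) polymerase. The paper's cmLumiOpto regimen also included injected ViviRen, the luciferin for that luciferase. All parts of the treatment were given to the same group, so their shares in any difference cannot be told apart from these libraries.

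The libraries held between 15263375 and 16755228 counts. The labels call the material tumour cells harvested from lungs, but surfactant and secretoglobin genes of normal lung were present in every library, and the summed level of 3 club cell markers ran from 79.9 to 5678 CPM. CPM are counts scaled to a common library size. The 5 epithelial genes listed for tumour epithelium, Epcam, Krt8, Krt18, Krt19 and Cdh1, were expressed in every library and overlapped between the groups. Normal lung epithelium can express such genes too, so they do not measure the share of tumour. Nothing in the labels ties each library to its own mouse, so the p-values measure the spread between these libraries, which may be technical in part. In bulk RNA, fewer cells of a type and less RNA per cell cannot be told apart.

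In mammals, methyl groups sit mainly on the cytosine of CpG dinucleotides. Dnmt1 copies the pattern onto the new strand behind the replication fork, where Uhrf1 recognises hemimethylated DNA and recruits it, while Dnmt3a and Dnmt3b set new marks on unmethylated DNA. Mbd2 binds methylated CpG and brings in the NuRD repressor complex, Uhrf2 is a paralogue of Uhrf1 that binds hydroxymethylcytosine, and the TET enzymes oxidise methylcytosine as the first step of active removal. Methylation at promoters keeps germline genes silent in somatic cells and marks one parental copy of imprinted genes.

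The CpG dinucleotide is the substrate these proteins share, and their own promoters differ widely in how many they hold. The windows of 3 genes are shown because Dnmt1 and Uhrf1 were both lower in the treated libraries and Dnmt3b was higher. Each is the stretch of 250 bases before a RefSeq start of the gene, in the build GRCm38.p6, read in the direction of transcription, and it overlaps no annotated exon. Capitals mark every CpG. The Dnmt1 window lies at chr9:20952980-20953229 on the minus strand, the Uhrf1 window at chr17:56304063-56304312 on the plus strand, and the Dnmt3b window at chr2:153649199-153649448 on the plus strand.
Dnmt1: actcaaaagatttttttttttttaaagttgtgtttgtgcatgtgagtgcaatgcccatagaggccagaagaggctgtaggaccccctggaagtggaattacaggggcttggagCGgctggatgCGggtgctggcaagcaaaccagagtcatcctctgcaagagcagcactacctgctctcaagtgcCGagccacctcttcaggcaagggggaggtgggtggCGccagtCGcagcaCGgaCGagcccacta
Uhrf1: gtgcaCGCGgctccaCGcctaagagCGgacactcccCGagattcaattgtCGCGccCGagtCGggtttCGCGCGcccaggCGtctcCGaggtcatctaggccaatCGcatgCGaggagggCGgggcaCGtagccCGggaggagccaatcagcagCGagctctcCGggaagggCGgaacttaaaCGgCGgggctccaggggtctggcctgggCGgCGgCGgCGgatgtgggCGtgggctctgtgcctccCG
Dnmt3b: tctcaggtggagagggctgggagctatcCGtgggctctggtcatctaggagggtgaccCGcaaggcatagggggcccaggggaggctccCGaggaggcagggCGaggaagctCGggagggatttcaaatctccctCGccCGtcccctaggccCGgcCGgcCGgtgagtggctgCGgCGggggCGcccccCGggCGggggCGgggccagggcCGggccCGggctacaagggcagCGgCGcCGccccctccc
The Dnmt1 window held 7 CpG, close to the median of 6 over 32851 RefSeq windows of this length, and 46.3% of windows held as many. The Uhrf1 window held 30 CpG, reached by 5.94% of windows, and the Dnmt3b window held 21, reached by 16.4%. The letters TTTNNCGC, a form of the site bound by E2F factors, were searched on both strands. They occurred once in the Uhrf1 window and in neither of the others printed, against 4.28% of all windows. CpG content varied between the starts of a gene as well. Of the other Dnmt1 windows, the one at chr9:20959889-20960138 held 2 CpG and no match, and one that runs 166 bases into an exon held 26 CpG and 2 matches. A further Uhrf1 window held 10 CpG and 1 match. A match is only a run of letters, and no binding or methylation was measured here.

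Among the writers, Dnmt1 showed the clearest separation between the groups. Its level was 240 and 236 CPM with saline, against 139 and 159 CPM with cmLumiOpto/PARPi. Both treated libraries lay below both saline libraries, and the distance between the groups was larger than that within either of them. The ratio of the group means was 0.627, and the log2 fold change was −0.67 ± 0.14 (SE), with a 95% confidence interval from −1.02 to −0.33. The adjusted p was 0.138 by the quasi-likelihood test of edgeR (Benjamini-Hochberg over all tested genes), so the call was not made at 0.05. DESeq2 gave the same gene an adjusted p of 0.00530, and edgeR with no filter on low counts, over 25435 genes, gave 0.00679. On simulated counts, 22.1% of DESeq2 calls at an adjusted p of 0.05 were false, against 10.7% for the main edgeR test. The simulation changed 200 genes by a log2 fold change of 2, up or down. It held no trend with gene length, unlike these data, so its shares do not measure the error of the calls made here. The unfiltered fit was not simulated. Without each library in turn, the log2 fold change stayed between −0.79 and −0.58, with a smallest edgeR adjusted p of 0.112.

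Dnmt3a, the main de novo enzyme of adult tissues, overlapped between the groups, at 37.1 and 26.3 CPM with saline and 37.4 and 28.9 CPM with treatment. Its log2 fold change was 0.06 ± 0.24 (SE), with an interval from −0.52 to 0.64, and it turned to −0.18 without saline replicate 2 and to −0.13 without cmLumiOpto/PARPi replicate 1. Dnmt3b, the de novo enzyme most active in early embryos, was low throughout, at 1.51 and 1.70 CPM with saline and 2.82 and 2.23 CPM with treatment. The treated libraries were the higher pair, the opposite side from Dnmt1. These values rest on 24 to 49 counts a library, and the log2 fold change of 0.65 ± 0.43 (SE) had an interval from −0.41 to 1.71 that takes in no change.

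Of the readers, Uhrf1, the partner that brings Dnmt1 to hemimethylated DNA, followed Dnmt1 in direction. It was at 158 and 154 CPM with saline and at 103 and 132 CPM with treatment. The saline libraries nearly coincided, the treated libraries were further apart, and the groups did not overlap. The log2 fold change was −0.41 ± 0.16 (SE; edgeR adjusted p = 0.231), and it was −0.24 without cmLumiOpto/PARPi replicate 1 and −0.62 without cmLumiOpto/PARPi replicate 2. Uhrf2 stood at 71.4 and 54.1 CPM with saline and at 92.1 and 67.3 CPM with treatment, so the lower treated library lay inside the saline range. Its log2 fold change of 0.35 ± 0.22 (SE) dropped to 0.14 without saline replicate 2 and to 0.10 without cmLumiOpto/PARPi replicate 1.

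Mbd2 had the smallest difference among the 6 members whose groups did not overlap. Its level was 103 and 110 CPM with saline and 120 and 112 CPM with treatment. Both treated libraries were higher, but by little more than the libraries of a group differed from each other, and the log2 fold change was 0.12 ± 0.13 (SE), with an interval from −0.19 to 0.44.

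The 3 erasers all had negative log2 fold changes. Tet3, the most abundant TET gene in these libraries, was at 50.2 and 50.8 CPM with saline and at 38.5 and 34.8 CPM with treatment. The groups did not overlap, and the log2 fold change was −0.46 ± 0.14 (SE; edgeR adjusted p = 0.176). Tet1, best known from embryonic stem cells and the germline, had the lowest level per length of the 9 genes and the largest negative fold change among them. It was at 4.14 and 3.34 CPM with saline and 1.90 and 1.68 CPM with treatment, from 28 to 66 counts a library. Its log2 fold change was −1.06 ± 0.40 (SE; edgeR adjusted p = 0.215), with a wide interval from −2.04 to −0.08. Tet2, which is often mutated in blood cancers, was at 21.4 and 34.7 CPM with saline and 22.8 and 18.7 CPM with treatment. Saline replicate 1 lay between the treated libraries, and the log2 fold change of −0.43 ± 0.28 (SE) was −0.06 without saline replicate 2 and −0.76 without saline replicate 1.

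**Figure D1:**
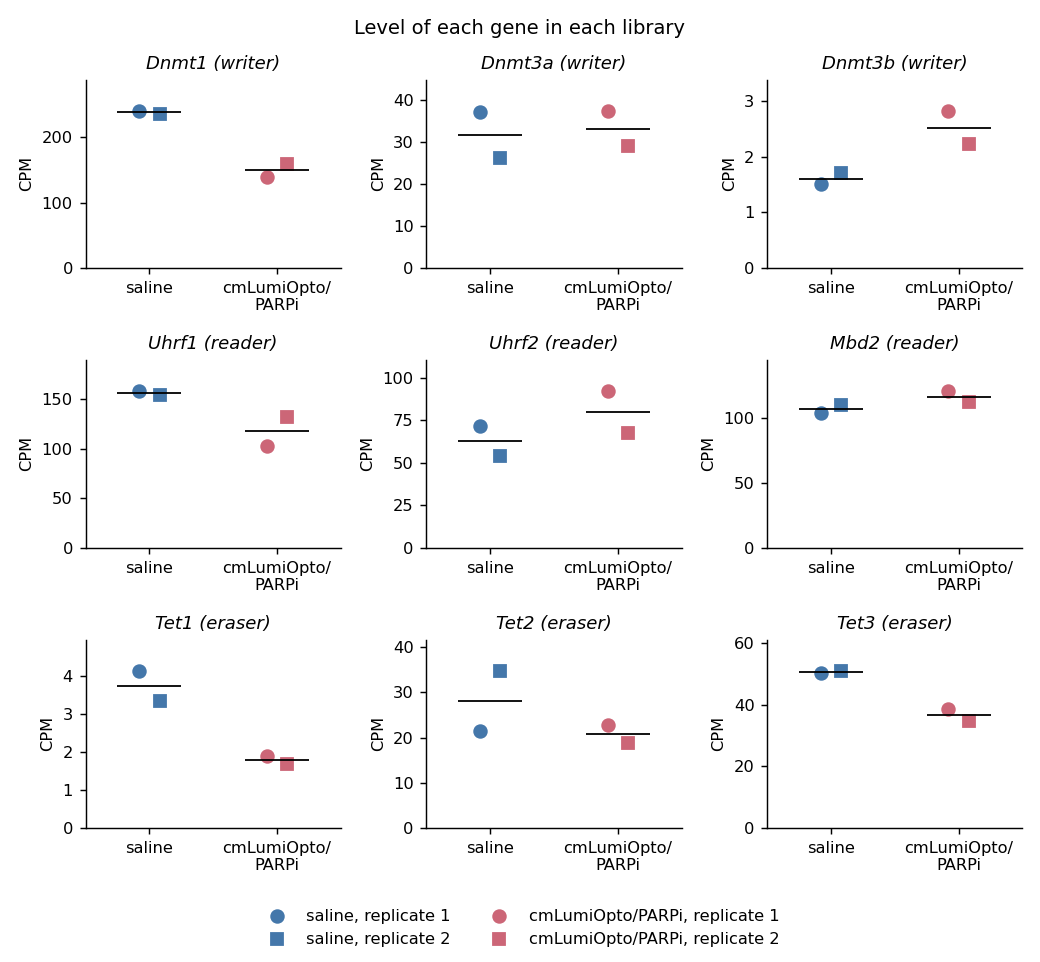
Level of each of the 9 genes in each library, in CPM on an axis from 0 that differs between panels, for 2 saline libraries (blue) and 2 cmLumiOpto/PARPi libraries (red), with a line at the group mean. Dnmt1, Uhrf1, Tet1 and Tet3 have both treated libraries below both saline libraries, Dnmt3b and Mbd2 have both above, and Dnmt3a, Uhrf2 and Tet2 overlap.

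Counted over the 9 genes, none passed an adjusted p of 0.05, as for 0 (0%) of the 15167 tested genes by edgeR, where the smallest adjusted p was 0.138. Without adjustment 3221 tested genes had a p under 0.05, and DESeq2 called 1011 genes after adjustment, of which 1 was a member, Dnmt1. At an unadjusted p under 0.05, 4 of the 9 genes were lower (Dnmt1, Uhrf1, Tet1 and Tet3), beside 12% of all tested genes, and 0 were higher, beside 9.21%. With an offset for gene length and mean level the split was 2 lower and 1 higher. In that fit 2312 of the 15167 tested genes had such a p, in either direction. Both treated libraries were below both saline libraries for 4 of the 9, beside 27.8% of tested genes, and above for 2 of the 9, beside 27.4%. The median log2 fold change was −0.41 over the 9 genes and 0.02 over all tested genes. The count of 4 rested on having all libraries: it was lower in each fit that left out 1 library, where a group held only 1. In those fits the log2 fold change ran from −0.79 to −0.58 for Dnmt1 and from −0.62 to −0.24 for Uhrf1. It ran from −1.22 to −0.91 for Tet1 and from −0.54 to −0.41 for Tet3. For a single gene, an exact two-sided permutation of 2 against 2 libraries cannot give a p below 0.333.

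Gene length moved with these differences. Across all tested genes, the log2 fold change had a Spearman correlation of −0.373 with the gene length in the table, given as a description across genes that share their 4 libraries. The median log2 fold change went from 0.36 in the shortest of 10 equal bins of genes by length to −0.33 in the longest, where 1160 of 1517 genes were negative. Tet1, Tet2, Tet3 and Dnmt3a, with lengths of 15457 to 16870 bases, were all in that longest bin, and Dnmt1 (7377 bases) and Uhrf2 (8590 bases) in the next, whose median was −0.22. Uhrf1 (4259 bases), Dnmt3b (5106 bases) and Mbd2 (3214 bases) came from bins with medians between −0.07 and 0.09.

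**Figure D2:**
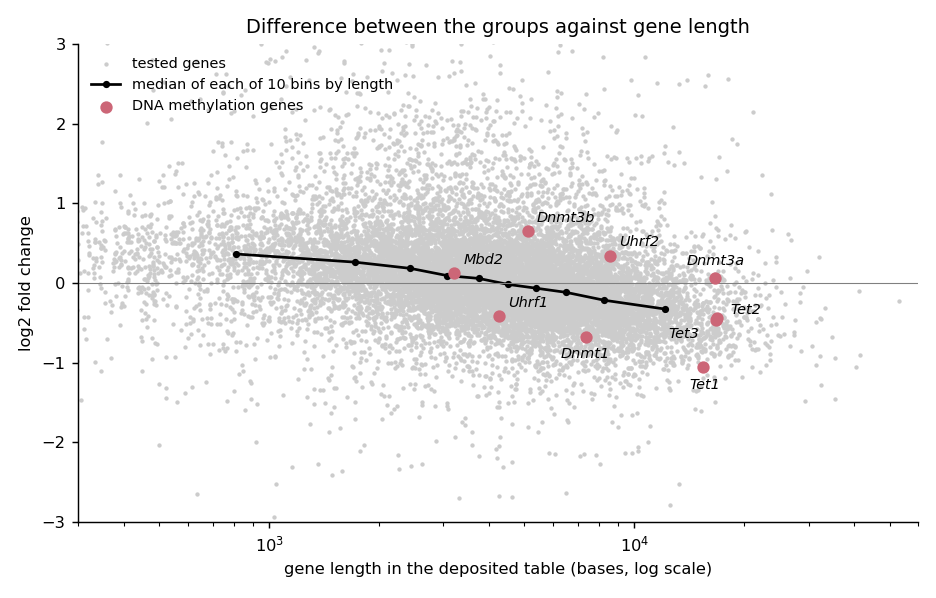
Log2 fold change (cmLumiOpto/PARPi against saline) of the tested genes against gene length in bases on a log axis; the black line joins the medians of the 10 equal bins by length, and the 9 genes are in red. The median passes from 0.36 to −0.33, and Tet2 and Tet3 lie closer to the median of their bin while Tet1 and Dnmt1 lie below theirs; values beyond the axis from −3 to 3 are not drawn.

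A second edgeR fit removed, for each library, a trend fitted jointly over gene length and mean expression level before the groups were compared, so that the parts of length and level in its values cannot be told apart. Tet3 then had a log2 fold change of −0.08 ± 0.14 (SE), where it had been −0.46, and Tet2 one of −0.12 ± 0.26 (SE). Dnmt1 kept its direction at −0.35 ± 0.12 (SE; edgeR adjusted p = 0.289). Tet1 stayed at −1.09 ± 0.38 (SE; edgeR adjusted p = 0.292) and Uhrf1 at −0.29 ± 0.14 (SE; edgeR adjusted p = 0.387). The values of Uhrf2 and Dnmt3a were larger in this fit, at 0.63 ± 0.23 (SE; edgeR adjusted p = 0.305) and 0.40 ± 0.24 (SE; edgeR adjusted p = 0.451), and that of Dnmt3b was smaller, at 0.35 ± 0.42 (SE; edgeR adjusted p = 0.705), where it had been 0.65. At an unadjusted p under 0.05, 2 of the 9 genes were lower in this fit (Dnmt1 and Tet1) and 1 was higher (Uhrf2). Over all 15167 tested genes, 2312 had such a p in this fit, in either direction. The median over the 9 genes was −0.08, and none passed the adjusted threshold. What made long genes lower in the treated libraries was not tested.

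**Figure D3:**
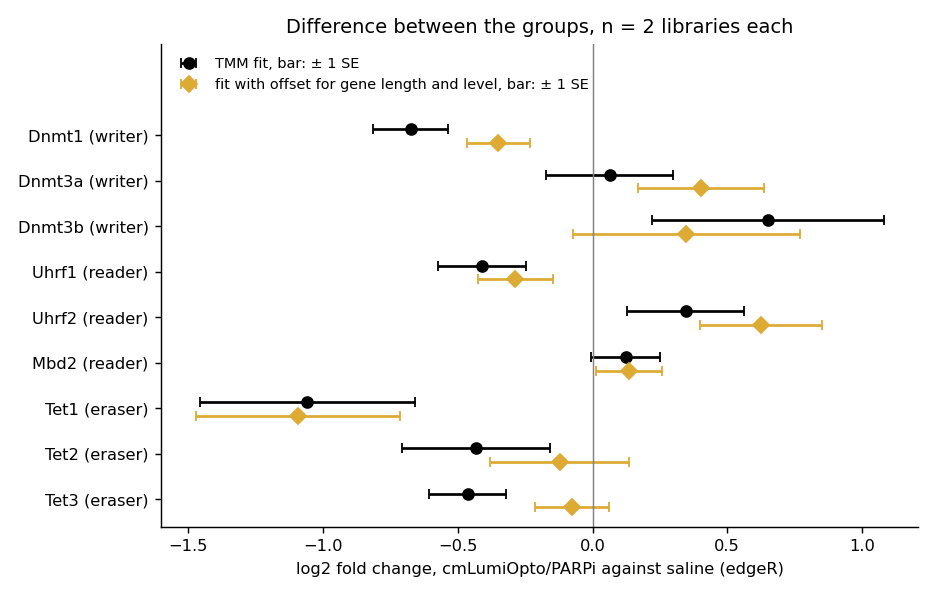
Log2 fold change of each of the 9 genes, cmLumiOpto/PARPi against saline, in the edgeR fit with TMM scaling (black circles) and in the fit that also removes a joint trend with gene length and mean level (yellow diamonds), each with a bar of 1 SE on either side. Between the fits Tet3 moves from −0.46 to −0.08, Dnmt1 from −0.67 to −0.35 and Dnmt3b from 0.65 to 0.35, while Tet1 goes from −1.06 to −1.09.

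Compared per kilobase of gene length, the 9 genes spread over a wide range of levels. In the saline libraries Uhrf1 was highest, at a mean of 36.6 CPM per kilobase, above Mbd2 at 33.2 and Dnmt1 at 32.2, whose ranges overlapped. Uhrf2 followed at 7.30 CPM per kilobase, then Tet3 at 3.03, Dnmt3a at 1.91 and Tet2 at 1.66, the ranges of the last pair overlapping, then Dnmt3b at 0.314 and Tet1 at 0.242. In the treated libraries Mbd2 came first, at 36.1 CPM per kilobase, ahead of Uhrf1 at 27.6 and Dnmt1 at 20.2. Below them the order was the same, except that the ranges of Tet3 and Dnmt3a overlapped in the treated libraries and those of Dnmt3a and Tet2 did not.

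Within each role, the make-up can be read from the same scale. Dnmt1 supplied 92.8% and 94.3% of the summed writer level per kilobase with saline, against 87.1% and 90.8% with treatment. The maintenance enzyme was thus the bulk of writer RNA in every library, and its share was lower in both treated libraries. The ratio of Uhrf1 to Uhrf2 per kilobase was 4.46 and 5.75 with saline and 2.25 and 3.96 with treatment. The ratio of Dnmt3a to Dnmt3b per kilobase was 7.57 and 4.74 with saline and 4.06 and 3.99 with treatment. Dnmt3b was low in counts, at 24 and 25 with saline and 49 and 37 with treatment. Division by length does not remove the trend between the groups with gene length from any of these ratios. In the fit with an offset for length and level, Dnmt3a and Dnmt3b had log2 fold changes of 0.40 ± 0.24 and 0.35 ± 0.42 (SE). Tet3 made up 66.2% and 57.3% of the summed TET level with saline and 61.0% and 63.1% with treatment, so its share overlapped between the groups, as did the ratio of Dnmt1 to summed TET, at 7.15 and 6.01 against 4.99 and 6.52.

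Dnmt1 and Uhrf1 act at the replication fork, so 16 genes of DNA replication and cycling were set beside them. Of these, all tested, 0 passed the adjusted threshold. At an unadjusted p under 0.05, 3 were lower and 1 was higher, beside 12% and 9.21% of all tested genes. The groups did not overlap for 7 that were lower and 3 that were higher, beside 27.8% and 27.4% of all tested genes. Their median log2 fold change was −0.19. The proliferation marker Mki67 was at 281 and 302 CPM with saline and 166 and 206 CPM with treatment (log2 fold change −0.65), and the helicase subunits Mcm6, Mcm4 and Mcm3 stood at log2 fold changes of −0.59, −0.45 and −0.35. The sliding clamp Pcna, the thymidylate synthase Tyms and the mitotic regulator Birc5 lay on the other side, at log2 fold changes of 0.26, 0.29 and 0.47. Relative to the mean log2 CPM of the 16 genes, Dnmt1 was higher by 0.83 and 0.76 with saline and by 0.33 and 0.24 with treatment. Uhrf1 differed from that mean by 0.22 and 0.15 with saline and by −0.11 and −0.03 with treatment. Both genes were thus lower in the treated libraries against the list mean as well as against all genes, although that mean itself moved with the groups. Within the list, Mki67, Mcm6 and Mcm4 had log2 fold changes more negative than the −0.41 of Uhrf1. Gene length was not adjusted for in this comparison.

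The rest of the pathway was described by a list of 35 other genes of DNA methylation, of which 32 were tested and 0 passed the adjusted threshold. At an unadjusted p under 0.05, 4 were lower and 2 were higher, beside 12% and 9.21% of all tested genes. The groups did not overlap for 13 that were lower and 7 that were higher, beside 27.8% and 27.4% of all tested genes. The median log2 fold change was −0.12. Of the 11 methyl-binding readers, 7 were lower without overlap and 1 was higher, beside the same 27.8% and 27.4%. Zbtb38, a zinc finger protein that binds methylated DNA, was at 103 and 118 CPM with saline and 48.5 and 66.2 CPM with treatment, a log2 fold change of −0.94 ± 0.19 (SE; edgeR adjusted p = 0.138). At 11733 bases it is in the longest of the 10 bins by gene length.

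Among the partners of maintenance, Usp7, a deubiquitinase that stabilises Dnmt1 and Uhrf1, was at 160 and 187 CPM with saline and 121 and 129 CPM with treatment (log2 fold change −0.47), whereas Cdca7, which recruits the remodeller Hells, was at 36.2 and 33.7 CPM against 43.9 and 45.8 CPM (0.36). In the base excision step that completes demethylation, the glycosylase Neil1 was higher in both treated libraries, at 8.46 and 6.02 CPM against 4.08 and 4.02 CPM. Tdg, another glycosylase of this step shown beside it, was lower in both, at 9.27 and 14.6 CPM against 16.3 and 22.2 CPM. Of the 5 genes listed for the step, 3 had negative and 2 positive log2 fold changes, with a median of −0.07. The methyl donor enzymes Mat2a and Mat2b, which make S-adenosylmethionine, were higher by 0.16 and 0.12 on the log2 scale without overlap. Zbtb33, which encodes the methyl-DNA reader Kaiso, stood at −0.39. The 2 members of the list at or under 3 counts in every library were Dnmt3c and Dppa3, both germline genes.

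**Figure D4:**
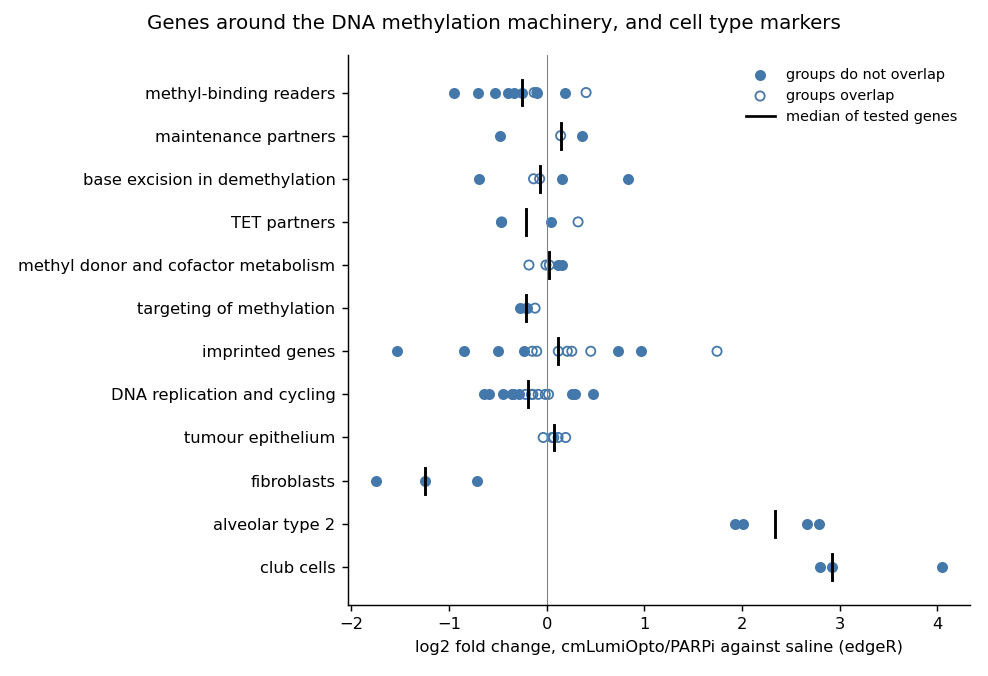
Log2 fold change (cmLumiOpto/PARPi against saline) of every tested gene in the lists around DNA methylation and in 4 lists of cell type markers; filled points are genes whose groups do not overlap, open points those that do, and black bars are list medians. Fibroblast markers sit below 0 (median −1.24), and alveolar type 2 and club cell markers above it (medians 2.34 and 2.92). The epithelial genes listed for tumour epithelium, which are not specific to the tumour, sit near 0 (0.07).

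Germline genes that promoter methylation keeps silent showed next to no RNA. Of 11 listed, 8 were at or under 3 counts in every library: Dazl, Ddx4, Mael, Asz1, Tex101, Taf7l, Dpep3 and Stk31. A count of 3 was 0.173 CPM in cmLumiOpto/PARPi replicate 1 and 0.204 CPM in saline replicate 2, so differences between the groups were not detectable at this depth for these 8 genes. Only Sycp1 was tested, with 9 and 14 counts with saline against 12 and 6 with treatment.

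Of 16 imprinted genes listed, 13 were tested and 0 passed the adjusted threshold. At an unadjusted p under 0.05, 3 were lower (H19, Grb10 and Igf2r) and 0 were higher, beside 12% and 9.21% of all tested genes. The groups did not overlap for 4 that were lower and 2 that were higher, beside 27.8% and 27.4% of all tested genes. The median log2 fold change was 0.12. The noncoding H19 was at 167 and 268 CPM with saline and 71.5 and 79.2 CPM with treatment, a log2 fold change of −1.53 ± 0.24 (SE; edgeR adjusted p = 0.138). Grb10, an adaptor of insulin signalling, and Igf2r, which clears IGF2, were lower too, at −0.84 and −0.49, and Plagl1 stood at −0.23. Cdkn1c, a cell cycle inhibitor, and Sgce, a sarcoglycan, were on the higher side at 0.73 and 0.97, the latter resting on cmLumiOpto/PARPi replicate 1, at 17.6 CPM against 7.04 CPM in the other treated library.

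Of 43 cell type markers, 0 passed the adjusted threshold, but several lists lay on one side of the comparison. Over all tested genes, both treated libraries were below both saline libraries for 27.8% and above them for 27.4%. The 3 fibroblast markers summed to 3526 and 2395 CPM with saline and 1004 and 1154 CPM with treatment, all 3 (Col1a1, Col1a2 and Pdgfra) lower without overlap. The markers of alveolar type 2 (4 of 4), alveolar type 1 (4 of 4), ciliated (3 of 3) and club cells (3 of 3) were all higher without overlap, and the alveolar type 2 sum ran from 274 to 1404 CPM with saline and from 2622 to 7557 CPM with treatment. The highest median among these lists was that of the club cells, 2.92 on the log2 scale. The epithelial genes listed for tumour epithelium summed to 2592 and 3011 CPM with saline and 2309 and 3402 CPM with treatment. That sum does not separate tumour from normal lung epithelium. Leukocyte and endothelial markers overlapped for 4 of 4 and 3 of 3 genes, and 2 of 3 B cell, 1 of 4 T and NK cell, 1 of 4 neutrophil and 2 of 3 red cell markers were higher without overlap. The part of cell make-up in the values of the 9 genes was not tested.

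Over the 4 libraries, the genes whose centred log2 CPM lay closest to that of Dnmt1 were Tbc1d1, Git1 and Myh9, at Euclidean distances of 0.032, 0.034 and 0.036. Tbc1d1 was at 83.8 and 80.2 CPM with saline and 48.2 and 54.3 CPM with treatment. Of the other members, Uhrf1 and Tet3 came nearest to Dnmt1, within the closest 5.81% and 7.80% of tested genes, followed by Tet1 at 17.6% and Tet2 at 35.5%. Mbd2 (49.6%), Dnmt3a (56.1%), Uhrf2 (71.8%) and Dnmt3b (80.5%) were further away. With 4 libraries these distances describe the pattern and carry no test.

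In the deposited table the genes lie at the following places. Dnmt1 (ENSMUSG00000004099) spans chr9:20818505-20871184 on the minus strand, Dnmt3a (ENSMUSG00000020661) chr12:3856007-3964443 on the plus strand and Dnmt3b (ENSMUSG00000027478) chr2:153491370-153529650 on the plus strand. Uhrf1 (ENSMUSG00000001228) spans chr17:56610321-56630486 and Uhrf2 (ENSMUSG00000024817) chr19:30007913-30071122, both on the plus strand. Tet1 (ENSMUSG00000047146) spans chr10:62640349-62744775, Tet2 (ENSMUSG00000040943) chr3:133169440-133250900 and Tet3 (ENSMUSG00000034832) chr6:83339355-83436066, all on the minus strand. Mbd2 is ENSMUSG00000024513 and is on the plus strand. These positions belong to the table's build, which the submitters' processing notes name as mm39, and are not those of the promoter windows. At these places 6 of the 9 genes shared ground with 9 other annotated genes, 4 of them on the opposite strand. Summed over the 4 libraries, the largest of these came to 2.22% of the member's counts: the antisense gene Dnmt3bos had 3 counts, all in saline replicate 2, where Dnmt3b had 25. A count per gene does not separate isoforms, so a switch between the promoters of Dnmt1, Dnmt3a or Uhrf1 would not be seen.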

How the data were processed

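Gene counts deposited by the authors were used as given: whole reads per gene, poly-A selected libraries on an Illumina HiSeq instrument. The submitters' processing notes name HISAT, HISAT2, TopHat2 and the build mm39; the study's methods name GRCm38, but only 2.83% of 52073 matched genes had their GRCm38 position in the table, which is therefore taken as mm39. The counter and its strand setting are not given in the sources used here. Samples were grouped by title, 2 libraries each. Counts were fitted with edgeR 4.0.16 in R 4.3.3 (glmQLFit and glmQLFTest, TMM, filterByExpr with a minimum count of 10, Benjamini-Hochberg over 15167 genes at 0.05). CPM values use TMM library sizes. Alternatives were DESeq2 1.42.0, RLE scaling, no filter, edgeR's legacy option off, the replicate number as a block, a loess offset (span 0.5) for gene length and level, and leaving out each library. Scripts were tested on simulated data. Promoter windows came from a RefSeq table and were taken for 8 of the 9 genes. Mbd2 was left out of that search. The members, the lists and the rule for named genes (of each list, up to 4 genes a direction with the smallest p among those whose groups do not overlap; the 3 genes nearest to Dnmt1; list members at or under 3 counts) were chosen with earlier results of these data known. The 2 libraries of a group differed by more than counting error, with chi-square over degrees of freedom of 24.1 for saline and 41.1 for cmLumiOpto/PARPi. One gene that the rule names is not reported here.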

Additional observations from a re-analysis of the deposited data

How the results depend on the processing

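With 2 libraries a group the spread was poorly known, and the count of calls moved with the tool. Against 0 genes past an adjusted p of 0.05, DESeq2 called 1011 genes, edgeR with no filter on low counts called 2000, and leaving out each library in turn gave 0 to 31. Of the 9 members, DESeq2 and the unfiltered fit each called 1, Dnmt1; leaving out each library called 0. The 4 members with an unadjusted p under 0.05 became 1 to 2, the 3221 tested genes became 1727 to 3464, and the 6 other genes of DNA methylation became 2 to 6 when a library was left out, and 3 both with DESeq2 and with the offset for gene length and level. Dnmt3a reversed, to −0.18 without saline replicate 2 and −0.13 without cmLumiOpto/PARPi replicate 1, with a range of −0.18 to 0.32 over the fits that leave out a library and a highest value of 0.42 over all 11 alternatives. The other 8 members kept their sign in 11 of 11 alternatives, with ranges from −0.79 to −0.35 for Dnmt1, −0.62 to −0.24 for Uhrf1, −1.22 to −0.91 for Tet1, −0.54 to −0.08 for Tet3, −0.76 to −0.06 for Tet2, 0.35 to 0.79 for Dnmt3b and 0.10 to 0.63 for Uhrf2, and the adjusted p of Dnmt1 from 0.00530 to 0.427. The cause of these moves was not tested.

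The labels number the libraries 1 and 2 in each group, but the numbers name no shared animal, and deviations of same-numbered libraries had a Spearman correlation of 0.298 across genes. With the replicate number as a block, edgeR called 1822 genes and 1 member, Dnmt1 (log2 fold change −0.68, adjusted p = 0.0230), changing no other member's call. On the simulated counts described for Dnmt1 above, 18.9% of the calls with this block were false. With the block and the offset for gene length and level together, edgeR called 404 genes and 0 members, with adjusted p = 0.149 for Dnmt1 and 0.0518 for Uhrf2. At an unadjusted p under 0.05, Dnmt1 and Tet1 were lower and Dnmt3a and Uhrf2 higher in this last fit. Over all 15167 tested genes, 3520 had such a p in it, in either direction.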
